A study of Homo sapiens with 15 samples.

Results

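A549 cells exposed to the fine particulate matter coded CQSUM were set against A549 cells given the solvent dimethyl sulfoxide (DMSO) across every gene with enough reads. The 2 groups hold 6 of the 15 RNA libraries of the series, 3 each, numbered 1 to 3. CQSUM cells received PM2.5, airborne particles of small diameter, at 100 µg/mL, and DMSO cells an equal volume of solvent; RNA was taken after 24 h. The other 9 libraries come from cells given PM2.5 coded CDSUM, CDWIN or CQWIN at the same dose and time. The labels explain none of these codes. They also do not say that a group's 3 libraries are separate cultures, and p-values therefore measure only how these libraries vary, which may be technical. A549 is an established line from a human lung adenocarcinoma; the labels call it an alveolar type II epithelial cell. Of 11 markers of that cell 8 had too few reads to be tested, the surfactant genes among them. The surfactant protein genes SFTPA1 and SFTPA2 had 0 reads in all 6 libraries, SFTPC had 7 reads over the CQSUM libraries and 11 over the DMSO libraries, and the lung transcription factor gene NKX2-1 had 1 and 4. The lipid transporter gene ABCA3 (2597 and 4643 reads), LPCAT1 (4016 and 7071) and NAPSA (81 and 100) were detected. A count of 0 in a library allows up to 3 reads there.

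Organic compounds carried by airborne particles, such as polycyclic aromatic hydrocarbons, bind the aryl hydrocarbon receptor (AHR). The bound receptor enters the nucleus, pairs with ARNT and switches on genes of xenobiotic metabolism, of which CYP1A1 is the classical one, at short DNA elements with the core GCGTG. Particles are also known to provoke oxidative stress, handled in part by the transcription factor NRF2, and the release of cytokines and neutrophil-attracting chemokines from airway epithelium. Cholesterol synthesis, BMP and Wnt signalling are governed by their own feedback genes, which serve as readouts of each pathway.

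Library sizes were 19216323, 18058943 and 18525442 reads for CQSUM and 18362354, 18782425 and 18992617 for DMSO. Counts depended on the GC content and length of transcripts, and this dependence moved with treatment. The GC slope was −0.191, −0.0887 and −0.184 log2 units per 10 percentage points in CQSUM libraries 1 to 3, against 0.133, 0.308 and 0.0894 in DMSO libraries 1 to 3. The length slope ranged from −0.0934 to 0.0936 log2 units per doubling in CQSUM, against 0.0626 to 0.208 in DMSO. In a principal component analysis of the 6 libraries the first component held 56.7% of the variance and separated the groups, and the second held 20.2% and set CQSUM 2 and DMSO 2 apart from the other 4. A second fit, with both trends removed, took smooth functions of transcript GC content and length out of every library; its value stands beside a result where it ends a call or moves the value by more than 1.5 times. The part of these trends in any result was not tested.

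Of 15565 genes tested, 5061 (32.5%) were called at an adjusted p under 0.05 (edgeR quasi-likelihood test, Benjamini-Hochberg adjustment). CQSUM was higher than DMSO for 2136 genes (13.7%) and lower for 2925 (18.8%). The 3 CQSUM libraries all lay on 1 side of the 3 DMSO libraries for 8056 genes (51.8%). Of all 15565 genes tested 1435 (9.22%) were called and changed at least 2-fold, 472 up (3.03%) and 963 down (6.19%). The balance of directions depended on scaling. With the size factors of DESeq2 the calls were 2635 higher and 2406 lower, with a shift of the median log2 fold change of all genes to 0.08. With both trends removed 2670 genes (17.2%) were called, 1389 higher (8.92%) and 1281 lower (8.23%), of which 1919 were among the 5061 in the same direction. Without CQSUM 2 the count was 3049, without DMSO 1 it was 3201, and without both CQSUM 2 and DMSO 2 it was 1971, of which 654 were higher and 1317 lower. Without both libraries 1951 of the 5061 calls were kept and 0 turned sign. Genes called in every fit numbered 999, with 326 higher and 673 lower. Here and below, every fit leaves aside the fits without a CDSUM, CDWIN or CQWIN library. A gene under the filter of at least 5 CPM in 3 libraries counts as not called in every fit. Reads of different strands could not be told apart in these counts, and in bulk RNA fewer cells of a kind cannot be told apart from less RNA per cell.

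The 5186 genes lowest in GC content (median 40.5%) held 1286 higher and 104 lower calls, while the 5186 highest in GC (median 59.3%) held 193 higher and 1982 lower. Transcript length showed a weaker gradient of the same kind: the 5186 shortest had 974 higher and 437 lower calls, and the 5186 longest 451 higher and 1330 lower. Among gene classes, processed pseudogenes stood at 77 higher and 6 lower of 402 tested, long intergenic noncoding RNAs at 72 higher and 26 lower of 652, and protein-coding genes at 1888 higher and 2781 lower of 13008.

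**Figure D1:**
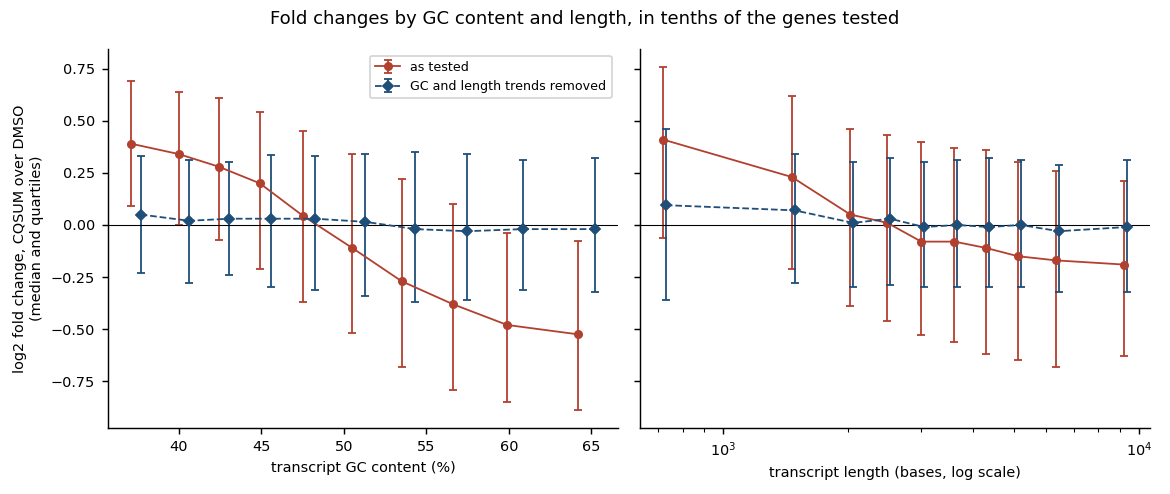
Median log2 fold change (CQSUM over DMSO) with quartiles in 10 equal groups of the genes tested, ordered by transcript GC content (left) or length (right, log axis), as tested (circles) and with both trends removed (diamonds). As tested the medians run from 0.39 in the group lowest in GC to −0.53 in the group highest; with both trends removed they lie near 0.

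An AHR target, CYP1A1, rose most among the named genes, and 3 of the 7 tested targets were not called. CYP1A1, the monooxygenase that oxidises polycyclic aromatic hydrocarbons, CYP1B1, its relative, and TIPARP, an ADP-ribosyltransferase that restrains AHR, are direct AHR targets. The windows around the start of the CYP1A1 and TIPARP genes, and of NQO1, which both AHR and NRF2 are known to regulate, are shown because these genes carry the AHR result and differ in how far they moved. They run from 250 bases before to 50 after the first start listed for each gene (RefSeq, GRCh38.p14; chr15:74725479-74725778 on the minus strand, chr3:156674340-156674639 on the plus strand and chr16:69726511-69726810 on the minus strand), with GCGTG, or CACGC where it lies on the other strand, in capitals.
CYP1A1: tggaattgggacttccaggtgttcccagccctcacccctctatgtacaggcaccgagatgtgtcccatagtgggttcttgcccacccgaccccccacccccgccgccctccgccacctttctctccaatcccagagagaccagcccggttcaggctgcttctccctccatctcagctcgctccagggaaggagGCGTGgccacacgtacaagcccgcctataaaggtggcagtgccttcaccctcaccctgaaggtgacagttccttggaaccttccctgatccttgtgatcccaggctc
TIPARP: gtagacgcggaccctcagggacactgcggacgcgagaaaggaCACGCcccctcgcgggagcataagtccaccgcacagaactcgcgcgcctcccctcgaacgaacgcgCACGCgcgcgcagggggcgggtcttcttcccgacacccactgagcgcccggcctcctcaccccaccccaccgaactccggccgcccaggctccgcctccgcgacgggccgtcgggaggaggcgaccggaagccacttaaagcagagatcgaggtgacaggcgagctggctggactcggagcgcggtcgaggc
NQO1: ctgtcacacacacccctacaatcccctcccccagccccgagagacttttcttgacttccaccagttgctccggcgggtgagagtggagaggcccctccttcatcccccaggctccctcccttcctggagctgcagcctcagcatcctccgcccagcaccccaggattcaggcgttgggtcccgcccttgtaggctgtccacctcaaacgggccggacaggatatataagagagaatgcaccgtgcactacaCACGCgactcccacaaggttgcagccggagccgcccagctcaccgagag
The letters GCGTG on either strand occurred 1 time in the CYP1A1 window, 2 times in that of TIPARP and 1 time in that of NQO1. All 5 tested AHR targets with a window held them, and so did 5468 of 10782 windows of tested genes (50.7%), so a match of this kind is common.

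CYP1A1 (GRCh38 chr15:74719542-74725610) had 11.5, 9.0 and 12.3 CPM (reads scaled to library size) in CQSUM libraries 1 to 3, against 0.8, 0.534 and 0.145 CPM in DMSO libraries 1 to 3. All CQSUM libraries were far above all DMSO libraries, which held 29 reads of the gene in all, against 626 in CQSUM. Its log2 fold change was 4.46 ± 0.45 (SE; adjusted p = 7.19e-06), the largest of the protein-coding genes that met the naming rule. TIPARP (chr3:156673235-156706770) had 115, 90.1 and 117 CPM in CQSUM and 17.6, 14.9 and 19.7 CPM in DMSO, a rise of 2.62 ± 0.20 (adjusted p = 4.07e-07). CYP1B1 had 106, 80.0 and 101 CPM in CQSUM, against 21.9, 17.1 and 21.0 CPM in DMSO, a rise of 2.26 ± 0.24. The groups did not overlap for either gene, and for both the lowest library of each group was number 2. Per transcript length, CYP1B1 (15.8 FPKM in CQSUM) was more abundant than CYP1A1 (3.15 FPKM in CQSUM), although CYP1A1 changed more. Antisense genes overlap TIPARP and CYP1B1, and their reads could be shared.

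Other AHR genes changed less or were not called. NQO1, a quinone reductase, averaged 3680 ± 616 CPM in CQSUM and 2380 ± 221 CPM in DMSO (SD, n = 3 each), a rise of 0.63 ± 0.23 (adjusted p = 0.0435). That call was lost with both trends removed (adjusted p = 0.104) and without any of CQSUM 2, CQSUM 3, DMSO 1, DMSO 2 and DMSO 3 (0.0601 to 0.171). AHRR, the AHR repressor, had 4.73, 5.09 and 5.04 CPM in CQSUM and 4.75, 4.17 and 3.52 CPM in DMSO, with overlapping groups and no call (0.26 ± 0.37). ALDH3A1 and UGT1A6 were not called either, at −0.36 and −0.15, and CYP1A2 had 0 reads in CQSUM and 1 in DMSO. In all 4 of 7 tested targets rose and 0 fell (median 0.63, against −0.00 over all genes), with 3 rising when both trends were removed. The share called as tested was 57.1%. Of the receptor and its partners 0 of 7 rose and 2 fell (28.6% called, near the 32.5% over all genes). The cochaperone partner HSP90AB1 fell by 0.58 ± 0.14 in every fit. AHR itself, at −0.70 ± 0.25 (adjusted p = 0.0396), lost its call without any of CQSUM 1, CQSUM 2, CQSUM 3, DMSO 1 and DMSO 2 (0.0639 to 0.193).

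NRF2 genes, which code for antioxidant and detoxifying enzymes, split in direction: 8 of 30 rose and 9 fell (median 0.06). The share called was 56.7%, against 32.5% over all genes. With both trends removed 2 rose and 8 fell. The thioredoxin reductase gene TXNRD1 had 1370, 1790 and 1610 CPM in CQSUM, against 842, 823 and 891 CPM in DMSO, a rise of 0.90 ± 0.19 (adjusted p = 0.00195). The lowest CQSUM library was above the highest DMSO library. SRXN1, a sulfiredoxin that restores oxidised peroxiredoxins, had 36.0, 34.7 and 31.9 CPM in CQSUM, against 59.1, 53.2 and 53.4 CPM in DMSO, and fell by 0.69 ± 0.15. OSGIN1, an oxidative stress-induced growth inhibitor, fell by 1.39 ± 0.18, and the epoxide hydrolase gene EPHX1 by 0.90 ± 0.18. These 4 genes were the list's calls in every fit, 1 higher and 3 lower. GCLM, a glutathione synthesis subunit, did not pass as tested (0.26 ± 0.14). It was called higher by DESeq2 (0.35, adjusted p = 0.0436) and with the length trend removed (0.44, adjusted p = 0.0233). The aldo-keto reductases AKR1C1 and AKR1C2, near-identical paralogs whose reads may be split between them, rose by 0.86 and 0.89, but lost their calls when the trends were taken out (0.84 and 0.58; adjusted p = 0.112 and 0.153).

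HMOX1, the haem oxygenase that NRF2 induces, had 363, 309 and 332 CPM in CQSUM, against 433, 528 and 485 CPM in DMSO. It fell by 0.53 ± 0.14, with no overlap, but lost the call with both trends removed (−0.32, adjusted p = 0.074). In iron handling NCOA4, the receptor that delivers ferritin to lysosomes, rose by 0.83 ± 0.19 and was called in every fit. The 10 members gave 2 rises and 2 falls (40.0% called, near the 32.5% over all genes). Metallothioneins bind zinc and other metals. MT2A had 435, 514 and 417 CPM in CQSUM and 259, 427 and 282 CPM in DMSO, where DMSO 2 reached into the CQSUM range. It was not called (0.50 ± 0.20, adjusted p = 0.0686), but was with libraries paired by number (0.52, adjusted p = 0.0159) or without DMSO 2 (0.75, adjusted p = 0.0147). DESeq2 also called it (adjusted p = 0.0397), as did the fits with the GC trend removed (adjusted p = 0.0235) and with no filter (adjusted p = 0.0482). Of 6 tested genes of this list MT1F alone was called, at 1.03 ± 0.27. Retinoid genes gave 3 rises and 1 fall among 11, a share of 36.4% called, near the 32.5% over all genes. DHRS9, a retinol dehydrogenase, had 9.85, 9.53 and 10.2 CPM in CQSUM, against 1.85, 1.60 and 1.59 CPM in DMSO (2.55 ± 0.34), and ALDH1A3, which makes retinoic acid, rose by 1.04 ± 0.19. STRA6, the receptor for retinol uptake, fell by 1.24 ± 0.19 as tested and by 0.76 with both trends removed (log2 fold change −0.76).

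**Figure D2:**
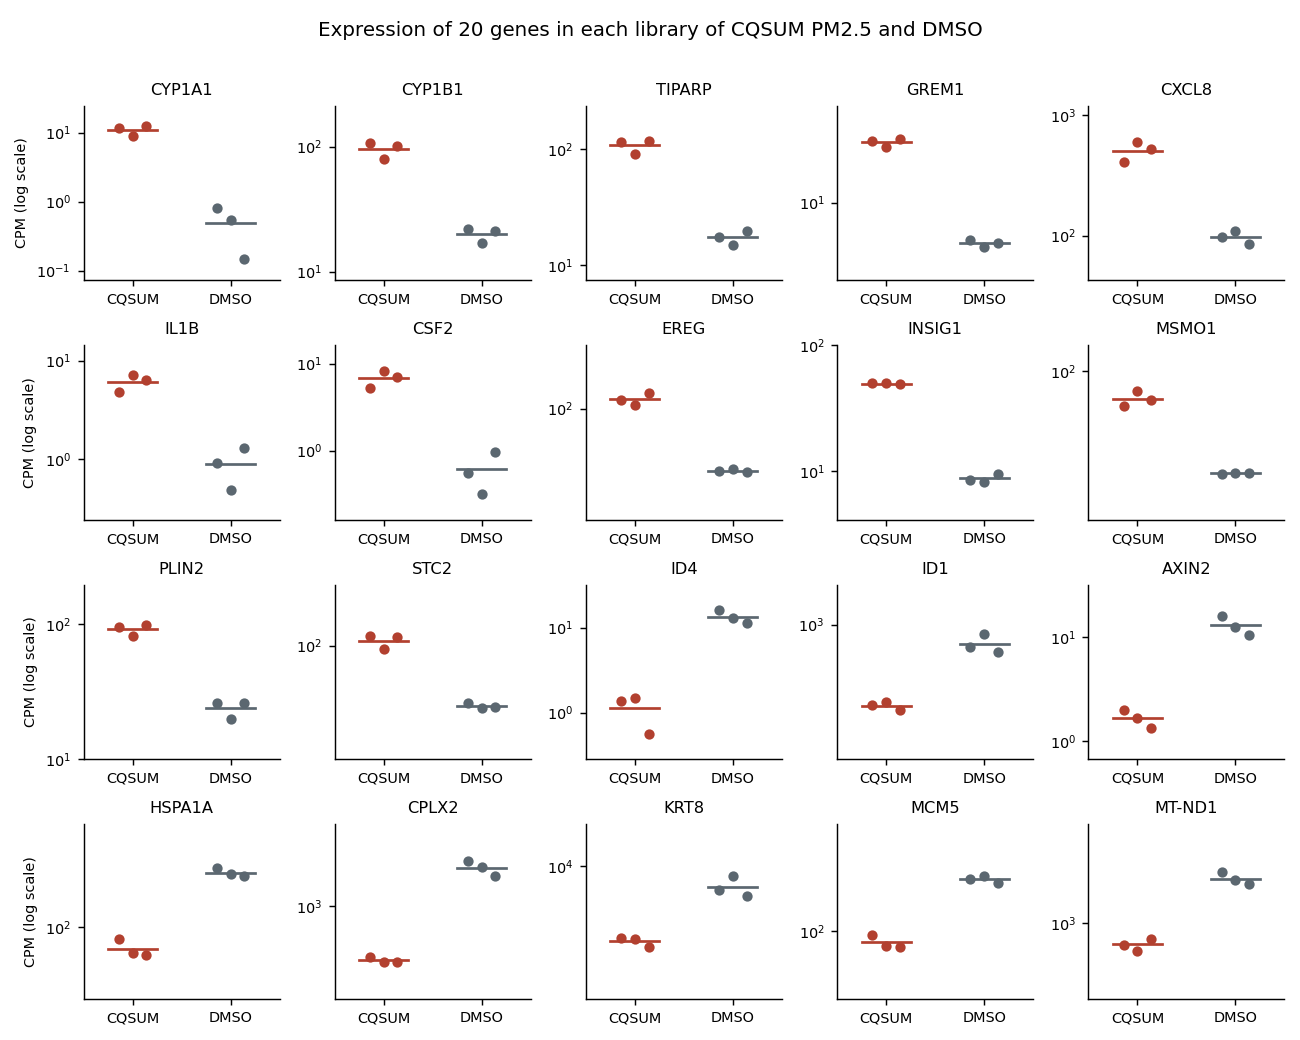
CPM (log axis) of 20 genes in CQSUM libraries 1 to 3 (left, red) and DMSO libraries 1 to 3 (right, grey); a bar marks the mean. The 12 genes from CYP1A1 to STC2 lie higher in all CQSUM libraries than in any DMSO library, and the 8 from ID4 to MT-ND1 lie lower in all CQSUM libraries.

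Of 12 tested cytokines and colony-stimulating factors 6 rose and 0 fell (median 0.47), and with both trends removed 5 rose. CSF2, which codes for the granulocyte-macrophage growth factor GM-CSF, had 5.27, 8.11 and 7.09 CPM in CQSUM, against 0.55, 0.321 and 0.965 CPM in DMSO (3.45 ± 0.34, adjusted p = 6.53e-06). IL1B, an interleukin that activates endothelium and leukocytes, had 4.78, 7.16 and 6.32 CPM in CQSUM, against 0.9, 0.481 and 1.3 CPM in DMSO (2.74 ± 0.39). For both, library 2 was the highest of CQSUM and the lowest of DMSO, and the groups were far apart. IL1A, the other interleukin-1 gene, rose by 2.81 ± 0.46, and the alarmin IL33, at under 1 CPM in every library, by 2.86 ± 0.72. IL6 had 2.39, 3.08 and 2.78 CPM in CQSUM, against 0.9, 0.802 and 0.965 CPM in DMSO (1.62 ± 0.36); with both trends removed it was at 1.10 (adjusted p = 0.0513). TNF was under the filter, with 22 reads over the CQSUM libraries and 17 over the DMSO libraries.

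Chemokine genes, whose products draw leukocytes, gave 8 rises and 0 falls among 10 (80.0% called, against 32.5% over all genes, median 0.72). CXCL8, the main neutrophil attractant, had 404, 594 and 517 CPM in CQSUM, against 98.0, 110 and 85.5 CPM in DMSO, a rise of 2.37 ± 0.25 (adjusted p = 1.20e-05). CCL2, which attracts monocytes, had 75, 101 and 97.7 CPM in CQSUM, against 23.8, 25.5 and 23.6 CPM in DMSO, a rise of 1.91 ± 0.15. The 3 DMSO libraries lay close together for both, and CQSUM 1 was the lowest CQSUM library. Only CXCL8 and CCL2 of the list were called with both trends removed, at 1.62 and 1.16. CCL20 rose by 1.89 ± 0.44 and was not called in that fit (0.93, adjusted p = 0.138). CXCL1, CXCL2, CXCL3 and CXCL5, ligands of the CXCL8 receptor, rose by 0.47 to 0.74, and stood at 0.12 to 0.31 with both trends removed, with no call.

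Of 14 genes of the transcription factor NF-kB and its inhibitors 0 rose and 4 fell as tested (28.6% called, near the 32.5% over all genes). NFKB2, RELA, BCL3 and NFKBIB fell by 0.50 to 0.83, and stood at −0.14 to −0.33 with both trends removed, uncalled. In that fit 3 of the 14 rose and 0 fell. NFKBIA, the inhibitor gene that NF-kB induces, had 152, 126 and 144 CPM in CQSUM and 121, 126 and 109 CPM in DMSO. It did not pass as tested (0.24 ± 0.16), but did with the GC trend removed (0.45, adjusted p = 0.0354). Immediate early genes, transcription factors that respond within minutes to stimuli, gave 6 rises and 3 falls among 17 (52.9% called). ATF3, a stress-induced repressor, had 7.70, 4.85 and 7.04 CPM in CQSUM, against 1.90, 2.51 and 1.45 CPM in DMSO (1.75 ± 0.35). IER3, an immediate early gene of cell survival, rose by 1.48 ± 0.15, while MYC fell by 0.80 ± 0.17 and FOSL2, an AP-1 subunit, by 1.27 ± 0.21 (−0.72 with both trends removed); these 4 were called in every fit.

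Of 5 tested genes of EGF receptor ligands 4 rose as tested, and EREG and TGFA were still called with both trends removed. EREG had 113, 106 and 126 CPM in CQSUM, against 40.3, 41.7 and 39.5 CPM in DMSO, a rise of 1.51 ± 0.18 (adjusted p = 4.56e-05). TGFA rose by 0.77 ± 0.17 and AREG by 0.68 ± 0.14, although AREG was at 0.14 with both trends removed (adjusted p = 0.577). BTC was at 1.03 ± 0.28 and at 0.61 in that fit (adjusted p = 0.106), and HBEGF was not called (−0.32 ± 0.29). The receptor gene EGFR was at 0.03. Over the 18 genes of ligands, receptors and feedback 6 rose and 1 fell, a share of 38.9% called, near the 32.5% over all genes. PTGES, which makes prostaglandin E, rose by 0.73 ± 0.14 in every fit. PTGS2, the inducible cyclooxygenase, had 84.4, 64.6 and 90.0 CPM in CQSUM and 49.7, 35.5 and 40.3 CPM in DMSO, without overlap. It missed the threshold (0.93 ± 0.37, adjusted p = 0.0596) and passed with libraries paired by number (0.92, adjusted p = 0.0178). PTGS2 also passed with the size factors of DESeq2 (adjusted p = 0.0338), with the length trend removed (adjusted p = 0.023), with no filter and with only the compared groups fitted. Complement C3 fell by 1.42 ± 0.23 (−0.81 with both trends removed), whereas CD59, which shields cells from the complement pore, rose by 0.93 ± 0.16. Interferon-stimulated genes gave 3 rises and 1 fall among 19, a share of 21.1% called against 32.5% over all genes.

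Cholesterol synthesis was the list with the most one-sided rise among those on lipids. Of its 20 genes 13 rose and 0 fell (65.0%; median 0.61), and 14 rose with both trends removed (median 0.69). HMGCS1, the first committed enzyme of the mevalonate branch, had 59.0, 70.3 and 69.8 CPM in CQSUM, against 27.6, 26.6 and 30.2 CPM in DMSO, a rise of 1.24 ± 0.19 (adjusted p = 0.00026). MSMO1, a sterol methyl oxidase, had 59.6, 74.2 and 64.6 CPM in CQSUM, against 21.3, 21.7 and 21.4 CPM in DMSO, a rise of 1.62 ± 0.19 (1.04 with both trends removed). DMSO libraries were nearly level for both genes. IDI1, an isomerase of the pathway, rose by 1.20 ± 0.19 and FDFT1, which commits carbon to sterols, by 1.10 ± 0.17. Of these 20 genes 8 were called in every fit, and 9 rose without CQSUM 2 and DMSO 2.

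INSIG1, the membrane protein that holds the sterol sensor in the endoplasmic reticulum, had 50, 49.8 and 48.8 CPM in CQSUM, against 8.50, 8.18 and 9.51 CPM in DMSO. Its rise of 2.5 ± 0.17 (adjusted p = 1.49e-07) came with almost no spread within either group. STARD4, a cholesterol carrier, rose by 1.75 ± 0.25 and ABCA1, which exports cholesterol, by 1.30 ± 0.26. SREBF2, the transcription factor of the pathway, was at 0.12 ± 0.19 as tested and at 0.77 with both trends removed (adjusted p = 0.000528). Sterol sensing and transport thus gave 5 rises and 2 falls among 15 (46.7% called, against 32.5% over all genes). With both trends removed the list gave 6 rises and 0 falls.

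Fatty acid genes split. SCD, the stearoyl desaturase, had 360, 285 and 353 CPM in CQSUM, against 197, 169 and 203 CPM in DMSO (0.81 ± 0.17), and ELOVL6, an elongase, rose by 0.91 ± 0.23. ACLY, which makes cytosolic acetyl-CoA, fell by 1.12 ± 0.18. FASN fell by 0.93 ± 0.17 as tested and was at −0.02 with both trends removed (adjusted p = 0.943). In all 5 of 15 rose and 2 fell (46.7% called, against 32.5% over all genes). PLIN2, a lipid droplet coat protein, had 96.1, 82.0 and 98.7 CPM in CQSUM, against 25.9, 19.9 and 25.9 CPM in DMSO, a rise of 1.95 ± 0.23. ANGPTL4, a secreted lipase inhibitor, rose by 1.29 ± 0.20. Of 10 droplet and PPAR genes 4 rose and 2 fell (60.0% called).

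In BMP signalling 9 genes fell and 1, an antagonist, rose. The ID genes, inhibitors of differentiation that BMP signals induce, all fell. ID4 (chr6:19837386-19840684) had 1.37, 1.48 and 0.565 CPM in CQSUM, against 16, 13 and 11.4 CPM in DMSO, a fall of 3.57 ± 0.36 on the log2 scale (log2 fold change −3.57, adjusted p = 7.19e-06). ID1 had 321, 334 and 299 CPM in CQSUM, against 729, 877 and 680 CPM in DMSO (−1.26 ± 0.18). Each CQSUM library was below each DMSO library for both genes. ID2 (−1.42 ± 0.17), ID3 (−0.73 ± 0.17) and the inhibitory SMAD gene SMAD6 (−1.63 ± 0.22, or −0.95 with both trends removed) were lower too, as were the ligand gene BMP4 (−0.85 ± 0.20) and the pseudoreceptor gene BAMBI (−1.07 ± 0.18). GREM1 (chr15:32717974-32745107), a secreted antagonist that traps BMP ligands, had 37.0, 32.1 and 38.5 CPM in CQSUM, against 4.55, 3.90 and 4.25 CPM in DMSO, a rise of 3.08 ± 0.26 (adjusted p = 9.26e-07). Of 16 genes tested 1 rose and 9 fell (62.5% called; median −0.79), and 1 rose and 7 fell with both trends removed. An overlapping gene on the other strand may share reads with GREM1.

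Of 12 Wnt pathway genes, several of them feedback genes that the pathway switches on to restrain itself, 6 fell, 1 rose and 5 were not called. The share called was 58.3%, against 32.5% over all genes. With both trends removed 8 fell and 1 rose. AXIN2, a part of the complex that destroys beta-catenin, had 2.0, 1.66 and 1.34 CPM in CQSUM, against 16.1, 12.6 and 10.6 CPM in DMSO (−2.97 ± 0.33, adjusted p = 1.98e-05). RNF43, a ligase that removes Wnt receptors, had 2.10, 1.01 and 1.28 CPM in CQSUM, against 8.95, 7.21 and 7.38 CPM in DMSO (−2.41 ± 0.38). Its relative ZNRF3 was at −1.78 ± 0.24 and the transcription factor TCF7 at −1.18 ± 0.28 (−0.63 with both trends removed). For these genes the highest CQSUM library was below the lowest DMSO library. CTNNB1, the gene of beta-catenin, went the other way at 0.60. The secreted inhibitor genes DKK1 (−0.10 ± 0.18) and NOTUM (−0.34 ± 0.43) were not called as tested, and DKK1 was at −0.60 with both trends removed (adjusted p = 0.0083).

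Of 27 genes of the matrix and TGF-beta list 10 fell, 2 rose and 15 were not called (44.4% called, against 32.5% over all genes). With both trends removed 6 fell and 2 rose. FN1, fibronectin, had 393, 328 and 447 CPM in CQSUM, against 1470, 781 and 1050 CPM in DMSO (−1.50 ± 0.29). The basement membrane collagens COL4A1 and COL4A2 were at −1.28 ± 0.25 and −1.34 ± 0.18, and at −0.64 and −0.53 with both trends removed. TGFBR1, a TGF-beta receptor, rose by 1.02 ± 0.25. VIM, a mesenchymal filament, did not pass as tested (−0.40 ± 0.15, adjusted p = 0.0545), but was called lower with both trends removed (−0.52, adjusted p = 0.0421). It was also called with only the compared groups fitted (−0.39, adjusted p = 0.0311) and with the filter at 5 CPM (adjusted p = 0.0397). Keratins and junctions gave 3 rises and 10 falls among 16 (81.2%), and 2 rises and 9 falls with both trends removed. KRT8 had 3840, 3820 and 3430 CPM in CQSUM, against 7330, 8740 and 6700 CPM in DMSO (−1.04 ± 0.17, or −0.68 with both trends removed), and its partner KRT18 moved by −1.06 ± 0.16. CLDN2, a pore-forming claudin, had 47.8, 52.1 and 44.6 CPM in CQSUM, against 176, 141 and 133 CPM in DMSO (−1.64 ± 0.21). KRT19, a simple-epithelial keratin, rose by 0.66 ± 0.17. The urokinase gene PLAU rose by 0.56 ± 0.13.

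Of 10 leukocyte markers 8 were under the filter, and PTPRC, CD3E and MS4A1 had 0 reads in all 6 libraries. The 2 tested, CD14 (412 reads over the CQSUM libraries and 610 over the DMSO libraries) and ITGAM (82 and 84), were not called. Among 10 fibroblast and endothelial markers 2 were tested, and VWF, KDR and COL1A2 had 0 reads. LUM, with 31 reads in CQSUM and 10 in DMSO, was not called (1.69 ± 0.64, adjusted p = 0.051). COL1A1, with 299 reads in CQSUM and 641 in DMSO, was called lower as tested (−1.04, adjusted p = 0.0108) and at −0.26 with the trends taken out (adjusted p = 0.502). Of 11 alveolar type II markers 3 were tested. ABCA3 and LPCAT1 were lower (−0.79 and −0.76), and at −0.01 and −0.25 with both trends removed, where 0 of the 3 were called. The gel-forming mucin MUC5B had 9.02, 8.29 and 12.3 CPM in CQSUM, against 43.3, 17.1 and 24.0 CPM in DMSO. DMSO 1 was far above the other DMSO libraries, and without it the fall of 1.51 was 1.06 and not called (adjusted p = 0.0682); with both trends removed it was also not called.

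Among stress genes the response that follows the kinase PERK and the factor ATF4 showed 3 rises and 3 falls of 21. That share, 28.6% called, was near the 32.5% over all genes. With both trends removed 7 rose and 1 fell. DDIT3, the proapoptotic factor CHOP, had 10.0, 12.3 and 9.15 CPM in CQSUM, against 2.70, 4.17 and 2.70 CPM in DMSO, a rise of 1.71 ± 0.32 (adjusted p = 0.00093). STC2, a secreted glycoprotein induced by this response, had 113, 95.6 and 112 CPM in CQSUM, against 46.1, 43.6 and 44.2 CPM in DMSO (1.26 ± 0.15). Neither gene's groups overlapped. PPP1R15A, which reverses the translation block, rose by 0.65 ± 0.17 (1.01 with both trends removed). ATF4 itself was at 0.38 ± 0.16 as tested (adjusted p = 0.0794) and at 0.59 with both trends removed (adjusted p = 0.0105). Reads of DDIT3 can be shared with overlapping genes on the other strand. Chaperones of the endoplasmic reticulum gave 4 rises and 4 falls of 21 (38.1% called, near the 32.5% over all genes). HSPA5, the main one, did not pass as tested (−0.28 ± 0.15), but was called lower with the GC trend removed (−0.39, adjusted p = 0.0437). HYOU1 fell by 1.01 ± 0.17 (−0.51 with both trends removed).

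Cytosolic heat shock genes fell or stayed under the threshold, apart from CHORDC1, at 0.50 as tested and 0.26 with both trends removed. The list gave 1 rise and 5 falls among 14 (42.9% called, against 32.5% over all genes). With both trends removed 4 fell. HSPA1A had 82.3, 65.9 and 64.6 CPM in CQSUM, against 251, 229 and 222 CPM in DMSO, a change of −1.72 ± 0.23 (adjusted p = 0.000107). HSPA1B, a near-identical copy whose reads may be split with it, was at −1.65 ± 0.21, and the cochaperone BAG3 at −1.21 ± 0.22. The 3 libraries of each group lay close together. HSF1, the factor that drives these genes, was at −0.58 ± 0.15 as tested and at 0.02 with both trends removed (adjusted p = 0.91).

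Among genes of growth arrest and survival, CDKN1A, a cell cycle inhibitor, had 283, 267 and 282 CPM in CQSUM and 299, 372 and 292 CPM in DMSO and was not called (−0.21 ± 0.15), nor was MDM2 (−0.19 ± 0.26). GDF15, a stress cytokine, had 188, 161 and 167 CPM in CQSUM, against 91.1, 114 and 88.1 CPM in DMSO (0.81 ± 0.19). In the BCL2 family 4 of 12 rose and 2 fell. BCL2A1, an antiapoptotic member, had 18.7, 26.3 and 20.9 CPM in CQSUM, against 5.60, 6.95 and 5.07 CPM in DMSO (1.90 ± 0.24, or 1.05 with both trends removed). The lysosomal protease CTSL rose by 1.15 ± 0.27 and the autophagy gene WIPI1 by 1.09 ± 0.24. Their list of 16 gave 6 rises and 4 falls (62.5% called). Clock genes gave 1 rise and 5 falls of 14 (42.9% called), of which 0 were called in every fit.

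Of 29 genes of DNA replication 0 rose and 13 fell (44.8%; median −0.41), and 11 fell with both trends removed. MCM5, a subunit of the replicative helicase, had 94.8, 82.8 and 81.3 CPM in CQSUM, against 200, 209 and 191 CPM in DMSO (−1.21 ± 0.17, adjusted p = 0.000137). MCM2 had 60.3, 61.4 and 62.0 CPM in CQSUM, against 136, 143 and 136 CPM in DMSO (−1.17 ± 0.19). Both groups were tight for both genes. POLE, a replicative polymerase, was at −1.38 ± 0.21 and RRM2, which supplies deoxynucleotides, at −0.78 ± 0.15. Mitosis genes gave 1 rise and 4 falls among 25, a share of 20% against 32.5%. MKI67, a marker of cycling cells, had 45.8, 27.6 and 41.6 CPM in CQSUM, against 102, 62.6 and 93.3 CPM in DMSO (−1.16 ± 0.31). With both trends removed MCM5 was at −0.63, MCM2 at −0.66, POLE at −0.69 and MKI67 at −0.74, all still called.

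Of metabolic genes, amino acid transporters gave 1 rise and 7 falls of 11 (72.7% called, against 32.5% over all genes). With both trends removed 0 rose and 3 fell. These were, with their values as tested, SLC1A4 (−1.42 ± 0.23), SLC7A1 (−1.17 ± 0.23) and SLC1A5 (−1.14 ± 0.17). The last of these stood at −0.65 and SLC7A1 at −0.61 with both trends removed. Glycolysis and hypoxia genes gave 4 rises and 6 falls of 21 (47.6% called, against 32.5% over all genes). LDHA, which makes lactate, rose by 0.83 ± 0.18 and PFKFB3, which stimulates glycolysis, fell by 1.01 ± 0.20; with both trends removed they stood at 0.51 and −0.49. Cytosolic ribosomal protein genes, short and abundant, gave 14 rises and 0 falls of 32 (43.8% called, median 0.59). With both trends removed 11 rose, but 0 rose without CQSUM 2 and DMSO 2 (median 0.53). Nuclear genes of oxidative phosphorylation gave 16 rises and 1 fall of 29 as tested (58.6% called, against 32.5% over all genes). With both trends removed 7 rose and 2 fell, and without CQSUM 2 and DMSO 2 there were 2 rises. In both lists 0 genes were called in every fit.

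Protein genes of the mitochondrial genome were lower, 6 of 13 as tested (46.2% called, against 32.5% over all genes, median −0.52). With both trends removed 13 of 13 were lower (median −1.10). In both fits 0 were higher. MT-ND1, a complex I subunit, had 735, 673 and 802 CPM in CQSUM, against 2080, 1870 and 1760 CPM in DMSO (−1.37 ± 0.19, adjusted p = 0.000158). Together the 13 genes took 3.29%, 2.85% and 3.52% of the reads in CQSUM, against 4.77%, 4.06% and 4.60% in DMSO. MT-ND5 was at −1.36 ± 0.29, MT-ND2 at −0.99 ± 0.21 (−1.69 with both trends removed), and MT-CO2 at −0.03 (−0.61 with both trends removed). Whether these genes differed from one another in their change was not tested. The ribosomal RNAs of the same genome, chosen after their values were seen, went the other way: MT-RNR2 had 14400, 16000 and 15400 CPM in CQSUM, against 7510, 8280 and 8300 CPM in DMSO (0.92 ± 0.19, adjusted p = 0.00159), a call it lost on removing both trends (0.33, adjusted p = 0.106). MT-RNR1 was at 0.97 ± 0.18 as tested and at 0.37 with both trends removed (adjusted p = 0.0446).

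**Figure D3:**
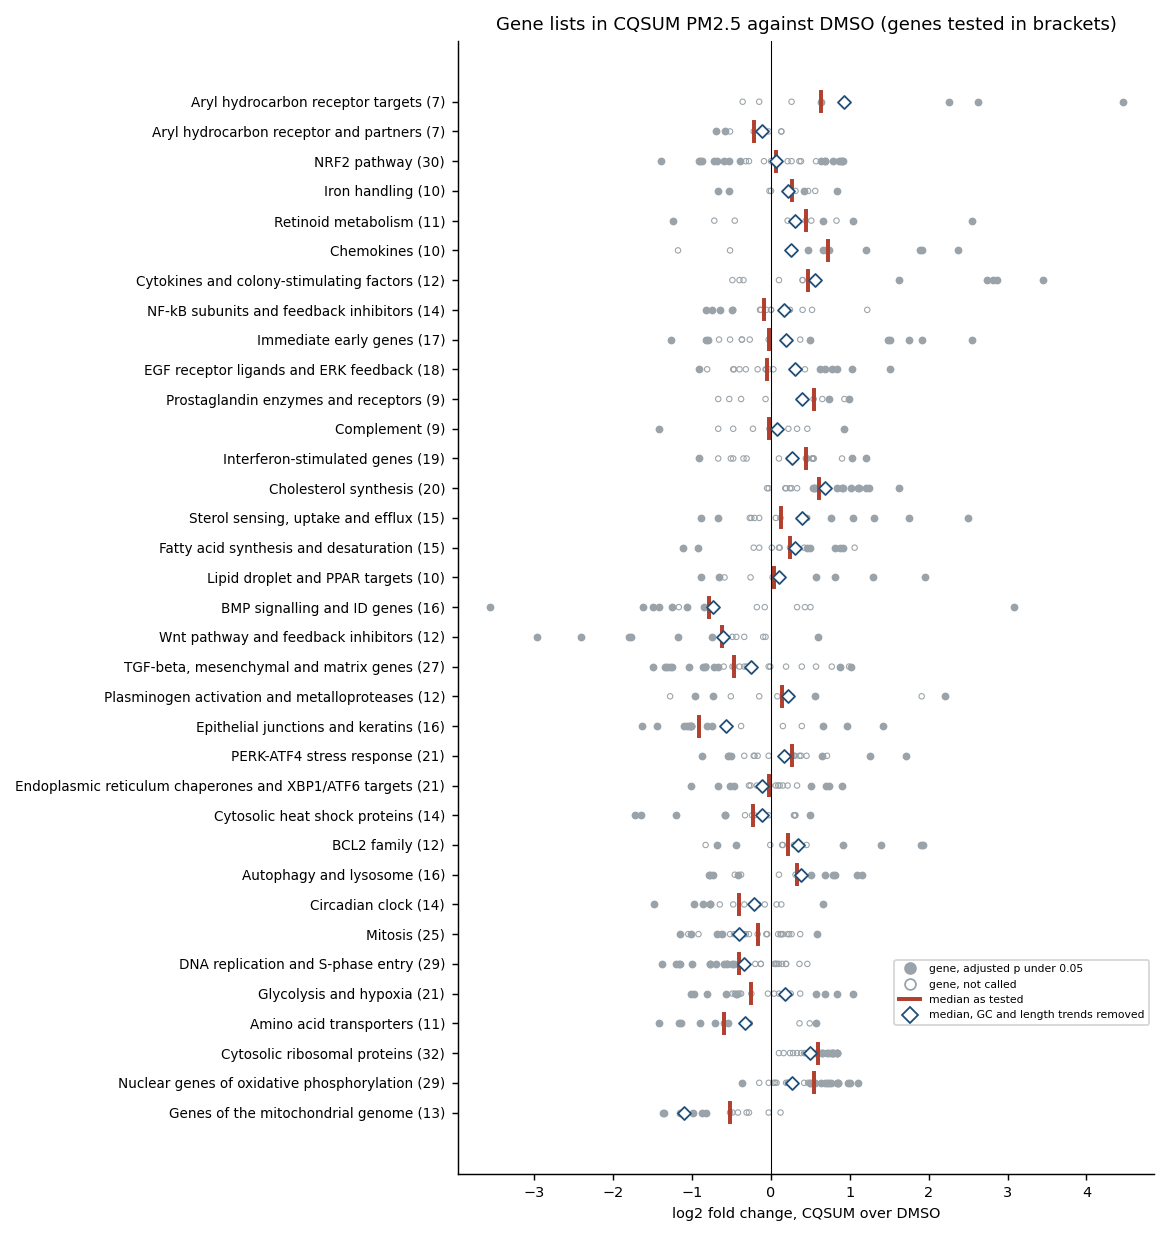
Log2 fold changes (CQSUM over DMSO) of the tested members of 35 gene lists with at least 7 tested members; filled grey points were called, open points were not. Red bars mark the median as tested and diamonds the median with both trends removed, which lies furthest below its red bar for the mitochondrial genome (−1.10 against −0.52).

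Other genes with the largest changes lay outside these lists. Among those that rose, ANXA10, a calcium-dependent membrane-binding protein, had 15.6, 30.5 and 22.1 CPM in CQSUM, against 2.35, 3.58 and 3.67 CPM in DMSO (2.83 ± 0.40). SLC16A6, a monocarboxylate transporter, rose by 2.58 ± 0.50, the trypsinogen gene PRSS3 by 2.33 ± 0.32 and MCTP1, a calcium-binding membrane protein, by 2.27 ± 0.25. CPLX2, complexin 2, which regulates vesicle fusion, was the most abundant of the genes that fell most: it had 382, 346 and 350 CPM in CQSUM, against 2380, 2110 and 1770 CPM in DMSO (−2.54 ± 0.24, adjusted p = 4.54e-06). The groups stood far apart, with CQSUM libraries nearly level. SUSD2, a membrane protein with sushi domain, had 4.78, 4.74 and 3.29 CPM in CQSUM, against 41.1, 36.8 and 29.7 CPM in DMSO (−3.07 ± 0.31). NPTX1, neuronal pentraxin 1, was at −3.02 ± 0.32, the hyaluronan-degrading protein gene CEMIP at −2.99 ± 0.56, the growth factor receptor gene FGFR3 at −2.79 ± 0.41, and FSTL4, SAMD11, EDN2 (endothelin 2) and RASL11A between −2.69 and −2.39. Of these 13 genes 12 were called in every fit; CEMIP lies under genes on the other strand, as do SLC16A6 and SAMD11. Each of the 24 genes with the largest changes kept its call with both trends removed.

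Some genes varied as much within the groups as between them. Of 10188 genes at 5 CPM or more in CQSUM, 79 ranged at least 4-fold between its 3 libraries, against 6 of 10230 in DMSO. CQSUM 2 was the lowest library for 76 of the 79 and CQSUM 1 the highest for 76, and for 75 of them DMSO 2 was the lowest DMSO library. TOP2A, a topoisomerase of dividing cells, had 387, 47.5 and 118 CPM in CQSUM and 272, 89.0 and 340 CPM in DMSO, and its change (−0.34 ± 0.67) was not called. CEBPZ, a nucleolar factor, had 43.9, 4.62 and 16.8 CPM in CQSUM and 28.4, 9.03 and 26.9 CPM in DMSO. Transcripts of these 79 genes were low in GC (median 38.4%, against 48.9% over all tested) and long (5897 bases, against 3300). Between CQSUM and DMSO 4 of the 79 were called, against 32.5% over all genes. A gene chosen for a wide range within CQSUM is hard to call, so that count is not a result about these genes. Whether this spread is technical was not tested.

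**Figure D4:**
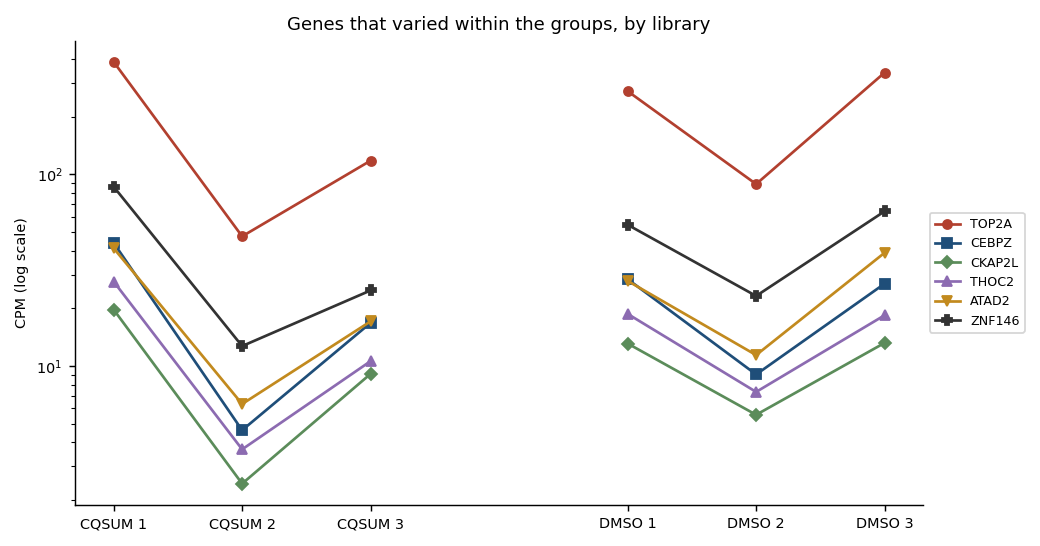
CPM (log axis) of 6 of the 79 genes that ranged at least 4-fold within CQSUM, in CQSUM libraries 1 to 3 and DMSO libraries 1 to 3; lines join libraries of a group only to guide the eye. CQSUM 2 and DMSO 2 are the lowest libraries for all 6 genes, TOP2A included at 47.5 and 89.0 CPM.

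CQSUM was next set against the other PM2.5 groups to ask which of its levels differ from theirs. Against the mean of CDSUM, CDWIN and CQWIN 0 genes were called by edgeR, 1723 had an unadjusted p under 0.05, the smallest adjusted p was 0.16, and DESeq2 called 147. Changes against DMSO share the DMSO libraries and are given only side by side. CYP1A1 was at 4.46 in CQSUM, 4.99 in CDSUM, 4.63 in CDWIN and 5.05 in CQWIN. ID4 was at −3.57 in CQSUM, −3.15 in CDSUM, −4.21 in CDWIN and −4.61 in CQWIN, and CXCL8 at 2.37, 2.77, 2.80 and 2.13 in the same order.

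Against CQWIN 3 genes were called (0.0193%), while 597 had an unadjusted p under 0.05 and DESeq2 called 11. The CQWIN libraries varied most: the median SD of log2 CPM within a group was 0.361 in CQWIN, 0.219 in CQSUM and 0.189 in CDSUM. The part of this spread in the number of calls was not tested. SCD had 360, 285 and 353 CPM in CQSUM, against 760, 683 and 997 CPM in CQWIN (−1.29 ± 0.17, adjusted p = 0.00585). FADS1, a desaturase of polyunsaturated fatty acids, had 242, 229 and 254 CPM in CQSUM, against 450, 395 and 486 CPM in CQWIN (−0.87 ± 0.14, adjusted p = 0.0454). ID3 had 415, 482 and 420 CPM in CQSUM, against 216, 230 and 142 CPM in CQWIN (1.16 ± 0.18, adjusted p = 0.0227). The groups did not overlap for any of these genes, but the number of calls was 0 without CQSUM 2, 0 without CQSUM 3, 1 without CQSUM 1, 11 without CQWIN 2 and 0 when only these 6 libraries were fitted.

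Against CDSUM far more genes were called: 2156 (13.9%), of which 2130 were higher in CQSUM (13.7%) and 26 lower (0.167%). VPS35, a subunit of the retromer that sorts endosomal cargo, had 184, 107 and 165 CPM in CQSUM, against 24.5, 18.6 and 18.0 CPM in CDSUM (2.90 ± 0.31, adjusted p = 6.37e-05). KNTC1, a kinetochore protein, had 26.3, 5.74 and 17.7 CPM in CQSUM, against 1.68, 2.23 and 2.06 CPM in CDSUM (3.06 ± 0.57), and the helicase gene RECQL was at 3.05 ± 0.56 and the checkpoint gene RAD17 at 3.02 ± 0.51. CQSUM libraries spread widely for KNTC1, with library 2 the lowest yet above every CDSUM library, and CDSUM libraries did not. For VPS35, KNTC1, RECQL and RAD17 the DMSO means were 98.6, 17.6, 14.4 and 8.99 CPM. In the same order CQSUM averaged 152, 16.6, 18.0 and 10.8 CPM, and CDSUM 20.4, 1.99, 2.16 and 1.33 CPM. CDSUM was thus below DMSO for all of them, while CQSUM lay near DMSO for KNTC1, RECQL and RAD17. Of the 79 genes that varied within CQSUM 64 were called higher than in CDSUM. The GC slope of the CDSUM libraries was positive (0.189, 0.213 and 0.229), unlike that of CQSUM. With both trends removed 1589 genes (10.2%) were called, 835 higher and 754 lower.

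**Figure D5:**
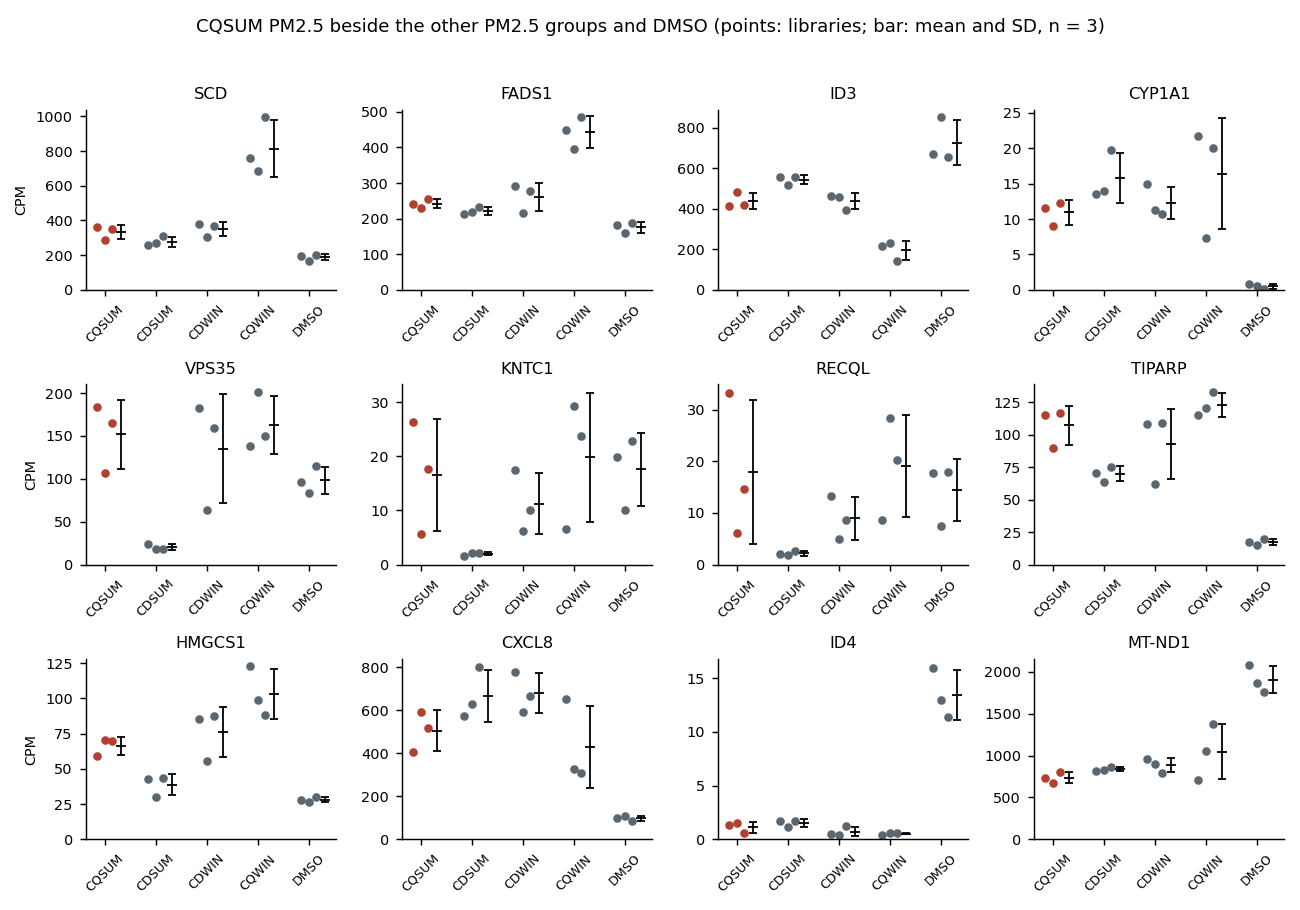
CPM of 12 genes in each library of CQSUM (red) and of CDSUM, CDWIN, CQWIN and DMSO (grey), with mean and SD (n = 3) beside the points. SCD and FADS1 are lower and ID3 higher in CQSUM than in CQWIN, and VPS35 is higher in CQSUM (107 to 184 CPM) than in CDSUM (18.0 to 24.5 CPM).

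In the authors' deposited table for CQSUM against DMSO 5877 genes had an adjusted p under 0.05, with 2852 higher and 3025 lower. Of these, 5854 were tested here, and 4859 were called here in the same direction and 0 in the opposite.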

How the data were processed

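RNA of A549 cells was sequenced after 24 h. The authors deposited raw counts of reads per gene, FPKM values per library, mean signal per group, log2 fold changes and p-values with adjusted p-values of their own comparisons. Per the labels' protocols 2 library kits are named; per the submitters' processing notes the builds are of mouse, although all 58735 gene identifiers are in human GENCODE 29 with the same coordinates (GRCh38). The aligner and counter are not given in the sources used here. All 15 libraries (17583532 to 19216323 reads) entered an edgeR 4.0.16 quasi-likelihood fit (R 4.3.3) with 1 coefficient per group, TMM scaling and filterByExpr, which kept 15565 of 29725 genes with a read; those removed held 0.0838% of reads. The common biological coefficient of variation was 20.5%. Genes were called at an adjusted p under 0.05. CPM are TMM-scaled. The SE of a fold change was derived from it and the F statistic. Every fold change is log2. Levels of different genes are compared in the deposited FPKM alone.

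The members and gene lists were chosen with earlier results of these data known. The naming rule took, per direction, the 12 largest called changes against DMSO (8 in the other contrasts) of protein-coding genes at 5 CPM or more in the higher group without overlap, up to 4 called genes a list, and a fixed set; the text gives a part. DESeq2 1.42.0, other size factors and filters, GC and length trends (natural splines, 6 degrees of freedom, longest transcript), a replicate block, a fit of the compared groups and leaving out libraries were tried. Same-numbered CQSUM and DMSO libraries deviated together (correlations 0.191, 0.395 and 0.115), so the replicate block paired libraries by number. The block spanned all groups. With CDWIN the same-numbered correlations were 0.157, 0.188 and 0.077, and with CDSUM −0.117, 0.037 and 0.07. With CQWIN they were −0.414, −0.12 and 0.194, while CQSUM 2 with CQWIN 1 stood at 0.47. Pairing by number was thus not seen in CDSUM or CQWIN. The main fit did not pair libraries. The labels give no pairing, and CQSUM 1 with DMSO 3 (0.186) and CQSUM 3 with DMSO 1 (0.096) also deviated together. The fit was tested on simulated data. Some genes are not reported here.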

Additional observations from a re-analysis of the deposited data

Results flagged for a closer look

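CQSUM and CDSUM differed in their change against the shared DMSO control by a test of the difference itself: 2156 genes were called between them, 2130 higher in CQSUM and 26 lower. VPS35 (2.90 ± 0.31) and RECQL (3.05 ± 0.56) were among the higher. RECQL varied widely within CQSUM (33.3, 6.04 and 14.7 CPM), and averaged 14.4 CPM in DMSO and 2.16 CPM in CDSUM. VPS35 averaged 152 CPM in CQSUM, 98.6 CPM in DMSO and 20.4 CPM in CDSUM. The balance moved to 835 higher and 754 lower with both trends removed, and the part of the trends in single genes was not tested.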

How the results depend on the processing

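For CQSUM against DMSO the count of 5061 moved to 2670 with both trends removed, to 2833 with the replicate block added to that, and to 1971 without CQSUM 2 and DMSO 2 (chosen after seeing the data); leaving out 1 library gave 3049 to 6084. The replicate block alone gave 5382 and, among the named genes, changed the calls of PTGS2, MT2A and BMP7 (adjusted p = 0.051, against 0.0421) and no other. Without CQWIN 2 or CQWIN 3 the median log2 fold change of all genes moved to 0.19 and 65.3% or 65.1% of calls were higher, against 42.2%; fold changes there are read relative to that shift. HSF1 reversed to 0.02 with both trends removed, with and without the block. Against the mean of the other PM2.5 groups the count of 0 became 147 by DESeq2, 547 with no filter and 1 with the block, and was 0 without any 1 library. Against CQWIN the count of 3 became 11 by DESeq2, 42 with no filter, 7 with the GC trend or both trends removed, 8 with both and the block, 5 with the length trend removed, 1 with the size factors of DESeq2 and 0 with the compared groups only; leaving out a library gave 0 to 11. Against CDSUM 2156 became 1240 with the GC trend removed, and leaving out a library gave 1487 to 2514. The cause of these moves was not tested. Depth limits genes of few reads, such as IL33 and CYP1A1 in DMSO.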
